A study of Saccharomyces cerevisiae with 73 samples.

Results

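The data described here are the course of gene expression in budding yeast after a shift from complete dextrose medium to galactose medium without amino acids. The course comprises the cultures Sgal (without inositol) and Sgal+ino (with inositol), chosen by their labelled media. They are 2 of the 13 cultures of the series and contribute 11 of its 73 arrays, which cover 10 combinations of culture and time. The strain was KCN118, an S288C-derived ade2 strain of mating type alpha, whose ade2 mutation blocks a step of adenine synthesis. Cells of both cultures grew at 28 °C to mid-log phase in SD+aa+ino, a synthetic medium with 2% dextrose, amino acids and inositol. Some of the cells were taken as t = 0, and the rest were collected on a filter, washed and put into synthetic medium with 2% galactose and no amino acids. Samples followed 15, 30, 60, 120 and 240 min after the shift. Filtering and washing preceded every shifted sample and not the t = 0 sample, so values against t = 0 hold both the handling and the medium. The culture SD+aa was handled alike and put into dextrose with amino acids and without inositol, and its values are set beside those of galactose below. The other 11 cultures were shifted to dextrose, ethanol or galactose media with other supplements and serve here for the spread between cultures and for comparison. Each medium was 1 culture, so that Sgal and Sgal+ino were used as 2 replicates of the galactose shift, and every p value measures only the spread between such cultures.

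Yeast cells growing on dextrose keep the genes for other sugars, for respiration and for high-affinity sugar uptake repressed, partly through the repressor Mig1, and release them when dextrose is gone. Galactose is taken up by Gal2 and converted by Gal1, Gal7 and Gal10, whose genes are switched on by the activator Gal4 once galactose-bound Gal3 has drawn away the inhibitor Gal80. Cells moved to a poor medium also raise heat-shock and stress genes and lower the genes for making ribosomes, and cells short of amino acids raise amino acid synthesis through the activator Gcn4.

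On each array the shifted cells carried Cy5 and the t = 0 cells Cy3, with no dye swap, and all values below are log2 ratios of shifted cells over t = 0. No source used here gives the base, direction or normalization of the deposited numbers, which were taken as log10 and turned into log2. Had they been log2 already, all values would shrink 3.32 times, and a ratio of the opposite direction would reverse all signs. The lowest correlation between any 2 arrays of the series was 0.0983. The medians of the 11 arrays lay between -0.14 and 0.02, with a value for 6130 to 6249 probes each, and the number of arrays limits the precision. A value of 6.64 is the limit of the deposited scale, a ratio of 100, and is a bound. The 2 arrays of Sgal+ino at 60 min, the second of which carries the note ojgrid, differed by a median of 0.00412, against 0.0985 to 0.183 for the 6 repeat pairs without that note, and were averaged and counted as 1 sample. The 30 min array of Sgal+ino stood apart. On it 959 of 5513 genes (17.4%) lay more than 0.3 outside the span of that culture's 15 and 60 min values, against 39 of 5460 genes (0.714%) in Sgal. At 60 min the shares were 5.54% in Sgal and 6.47% in Sgal+ino, and at 120 min 8.16% in Sgal and 4.13% in Sgal+ino. Counts of first movement and of steps are therefore also given without the 30 min arrays or without Sgal+ino. Counts at 30 min and comparisons of both cultures at 30 min use that array.

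The response to galactose without amino acids built up over the whole course and was stronger in Sgal. The number of genes at least 2-fold from t = 0 (1 log2 unit) was 227, 681, 1383, 2065 and 2349 in Sgal from 15 to 240 min, and 121, 475, 734, 1257 and 1427 in Sgal+ino. The SD of the log2 ratios over genes rose with time in each culture, to 1.37 in Sgal and 1.07 in Sgal+ino at 240 min. Genes were ordered by the first time at which both cultures were at least 1 log2 unit from t = 0 in the same direction. At 15 min 76 genes had so moved up and 34 down, and 167 up and 72 down joined them at 30 min, 214 and 141 at 60 min, 198 and 281 at 120 min, and 119 and 134 at 240 min. Through 60 min more genes set out upward than downward. At 120 and 240 min more set out downward, but after median centring 260 up and 186 down were first counted at 120 min, and 134 and 106 at 240 min. Of 5538 genes, 774 moved up and 662 down by this rule. All 76 genes that were up by 15 min were still up at 240 min, and 26 of the 34 early down genes were still down. Without the 30 min arrays 581 genes in place of 355 were first counted at 60 min, and with Sgal alone 227 genes in place of 110 were first counted at 15 min.

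**Figure D1:**
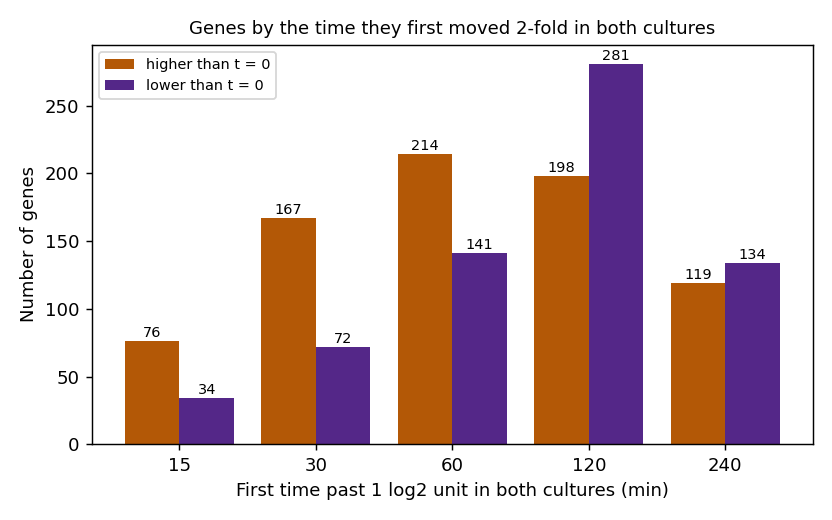
Bars give the number of genes whose log2 ratio first reached 1 (higher than t = 0) or -1 (lower than t = 0) in both Sgal and Sgal+ino, by time after the shift in minutes. Upward counts are highest at 60 min (214 genes) and downward counts at 120 min (281 genes).

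The limma fit, which takes the spread from 5 pairs of cultures differing only in inositol, found 950 genes higher and 834 lower than t = 0 at 15 min. At 240 min it found 1409 higher and 1907 lower, with 5145 genes tested. After median centring of the arrays the counts were 1046 higher and 902 lower at 30 min, 1450 and 1482 at 60 min, 1369 and 1571 at 120 min, and 1603 and 1604 at 240 min, so that the excess of lower genes depended on the scaling. The share of tested genes that rose was 20.3%, 19.8%, 25.9%, 26.6% and 27.4% from 15 to 240 min. The share that fell was 17.8%, 23.3%, 35.5%, 41.2% and 37.1%, so that 38.1%, 43.1%, 61.4%, 67.8% and 64.5% passed in either direction. The median over all genes tested was 0.03 at 15 min, -0.06 at 30 min, -0.11 at 60 min, -0.22 at 120 min and -0.17 at 240 min. Centring each array on its median moved the median of all genes by up to 0.13, at 120 and 240 min. The count of genes past the threshold was smaller with a single culture, 1545 without Sgal+ino and 1298 without Sgal at 30 min, against 1999 with both. At 15 min it was 949 without Sgal+ino and 544 without Sgal, against 1784 with both, and Sgal was the culture whose loss lowered the count more at each of the 5 times.

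Protein-folding and stress genes rose early, but at 15 min the median of the stress list was no higher than in SD+aa (values below). The list of cytosolic protein chaperones had 20 of 24 tested members higher at 15 min and none lower, with a median of 0.73, and 21 higher and 2 lower of 25 at 240 min, with a median of 2.58. The general stress response list had 24 of 26 higher at 15 min (median 0.94) and 24 higher and 1 lower of 26 at 240 min (median 2.95). Of all genes tested, 20.3% were higher at 15 min and 27.4% at 240 min. Of 26 chaperone genes with a probe, 11 had passed 1 log2 unit in both cultures by 15 min and 5 more by 30 min, and of 30 stress genes, 13 and 6. Over all genes 1.37% first moved up this far at 15 min and 3.02% at 30 min.

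BTN2, which gathers misfolded proteins for disposal, had log2 ratios of 5.31, 6.42, 6.64, 6.64 and 6.64 in Sgal at 15, 30, 60, 120 and 240 min, and of 4.21, 5.59, 6.05, 6.09 and 6.64 in Sgal+ino. Both cultures were far above t = 0 from the first sample, Sgal higher until both stood at the limit. The mean of the 2 cultures at 15 min was 4.76 ± 0.25 (limma, adjusted p = 3.07e-07). Here and below ± gives the moderated SE of the limma fit. Its spread is pooled over pairs of cultures in several media, and is not that of these 2 cultures alone. HSP42, a small heat-shock protein that sorts aggregates, had 4.52, 6.06, 6.58, 6.64 and 6.64 in Sgal and 3.24, 4.90, 5.29, 5.19 and 6.53 in Sgal+ino. SSA4, a stress-inducible Hsp70, had 2.88, 5.52, 6.64, 6.64 and 6.64 in Sgal and 2.01, 4.49, 5.75, 6.25 and 6.26 in Sgal+ino. All 3 genes were higher in Sgal than in Sgal+ino at each of the 4 times from 15 to 120 min. ROQ1, a stress-induced regulator of protein degradation, separated the cultures most widely among these early genes, with 4.44, 5.11, 6.10, 6.58 and 6.30 in Sgal and 2.05, 2.74, 3.12, 3.42 and 4.29 in Sgal+ino. HSP12, a membrane-protecting protein of the general stress response, came later, with 1.14, 3.32, 4.98, 6.42 and 5.69 in Sgal and 0.61, 2.75, 3.85, 6.12 and 3.86 in Sgal+ino, against 4.90, 4.32, 1.80, 0.59 and 0.84 in SD+aa. Its 30 to 60 min and 60 to 120 min steps were 1.38 ± 0.33 and 1.86 ± 0.40 (adjusted p = 0.0263 and 0.0298). The other leading genes at 15 min were TMA10 (4.58 ± 0.30), HSP30 (4.18 ± 0.26), encoding a plasma membrane heat-shock protein, and ATG41 (3.03 ± 0.32), which acts in autophagy. TMA10, BTN2, HSP42 and SSA4 at 240 min stood at or near the limit, so their means there, 6.64, 6.64, 6.59 and 6.45, are at or close to bounds.

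Early falls were fewer. ILV5, an enzyme of isoleucine and valine synthesis, had -2.33, -3.20, -3.40, -3.88 and -3.91 in Sgal and -1.92, -2.69, -3.03, -3.58 and -3.33 in Sgal+ino. Both cultures were below -1.9 at 15 min and below -3.3 at 240 min, with a mean of -2.12 ± 0.11 at 15 min (adjusted p = 3.07e-07). AQR1, a plasma membrane exporter of amino acids, averaged -2.0 ± 0.13 at 15 min and -3.58 ± 0.25 at 240 min. RRN11, a factor that places RNA polymerase I on the ribosomal DNA, averaged -1.62 ± 0.18 at 15 min. The G1 cyclin gene CLN1 had -1.67, -2.20, -2.46, -1.80 and -1.90 in Sgal and -1.51, -1.54, -2.02, -1.90 and -1.60 in Sgal+ino, so that it was lowest at 60 min in both cultures. CLN3, the cyclin that starts the G1 program, averaged -1.24 ± 0.15 at 15 min, and CLN2 followed with -0.82 ± 0.10 at 15 min and -2.51 ± 0.25 at 240 min. Of the list of cyclins and their kinase inhibitors, 7 of 17 fell at 15 min and 13 of 19 at 240 min, against 17.8% and 37.1% of all genes. VMA8 had the largest mean fall at 15 min, but its value of -6.64 occurred on the Sgal+ino array alone, with -0.35 to -0.01 in that culture at other times.

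**Figure D2:**
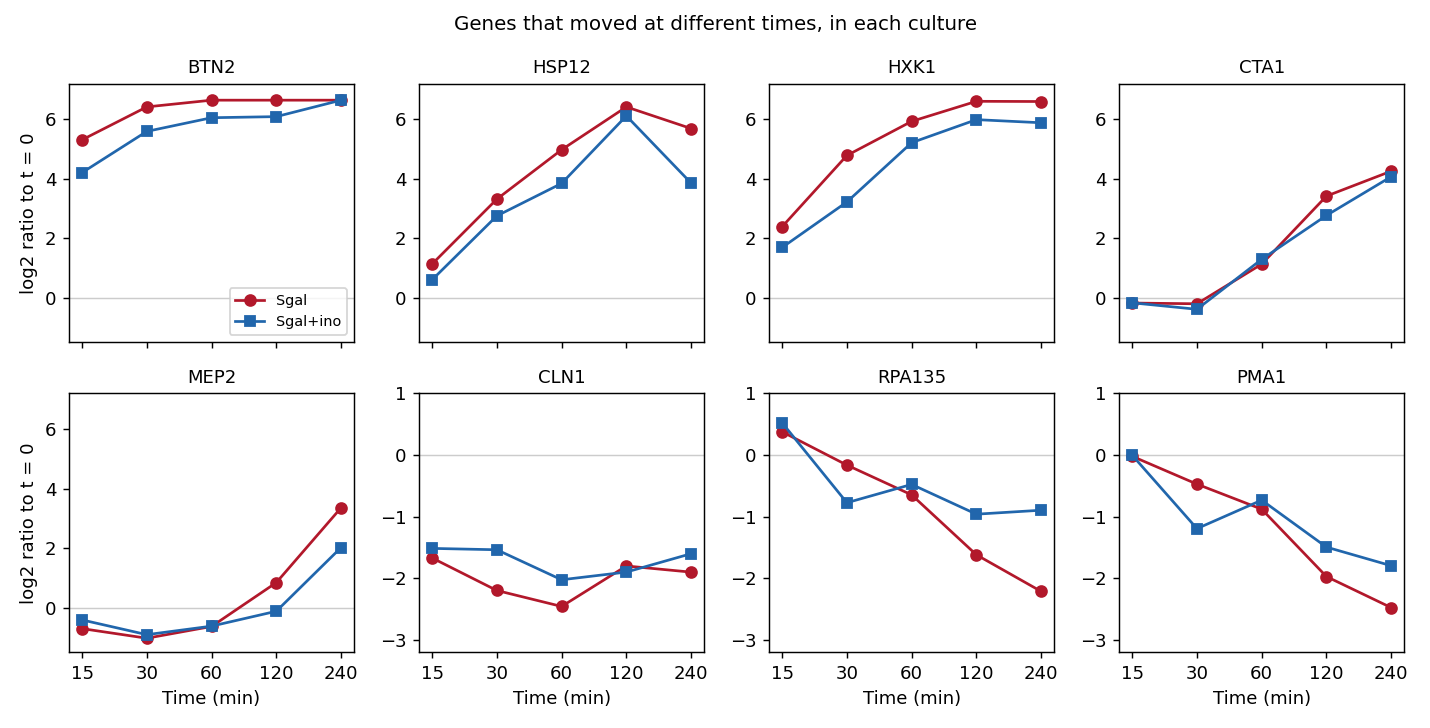
Log2 ratio to t = 0 of single genes by time after the shift in minutes, with Sgal and Sgal+ino as separate lines and time evenly spaced. BTN2 is above 4 in both cultures at 15 min, whereas MEP2 is above 1 only at 240 min, with 3.36 in Sgal and 2.02 in Sgal+ino.

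Several of these early values were also seen in SD+aa, in which 164, 16, 1, 17 and 1 genes were at least 2-fold from t = 0 from 15 to 240 min. The median of the stress list at 15 min was 1.10 in Sgal and 0.69 in Sgal+ino, against 1.21 in SD+aa, and at 240 min 3.18 and 2.52, against 0.39 in SD+aa. For chaperones it was 0.97 in Sgal and 0.73 in Sgal+ino at 15 min, against 0.70 in SD+aa, and 2.91 and 2.47 at 240 min, against 0.27. For ribosome assembly it was -0.28 in Sgal and -0.18 in Sgal+ino at 15 min, against -0.70 in SD+aa, and -1.95 and -1.03 at 240 min, against -0.23. By these medians, at 15 min the stress list was no higher, and the ribosome assembly list no lower, than after the same handling in dextrose.

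In the limma fit galactose minus SD+aa passed at 15 min for 344 genes higher and 304 lower of 4687 (7.34% and 6.49%), and at 240 min for 767 higher and 839 lower of 5145 (14.9% and 16.3%), or 877 and 573 after median centring. SD+aa is 1 culture and was assumed to vary like the others, and it differs in both sugar and amino acids. Without Sgal 242 genes passed at 15 min and 805 at 240 min, and without Sgal+ino 338 passed at 15 min. At 15 min 3 of 26 stress genes were higher in galactose and 9 lower, and at 240 min 21 were higher and 1 lower. Chaperones had 6 higher and 1 lower of 24 at 15 min, and 19 higher and none lower of 25 at 240 min. Ribosome assembly genes had 31 higher and none lower of 73 at 15 min, and none higher and 31 lower at 240 min. BTN2, with 1.07, 0.00, 0.23, 0.16 and 0.39 in SD+aa, was higher in galactose by 3.69 ± 0.44 at 15 min (adjusted p = 0.00057), HSP30 by 4.20 ± 0.46 and ATG41 by 3.53 ± 0.56. SSA4, with 1.13 in SD+aa at 15 min, differed by 1.31 ± 0.57 (adjusted p = 0.15) and ROQ1, with 1.15, by 2.10 ± 0.66 (adjusted p = 0.0554), so neither passed at 15 min. HSP12 was lower in galactose at 15 min, by -4.02 ± 0.34 (adjusted p = 0.00014), and higher at 240 min, by 3.94 ± 0.66 (adjusted p = 0.00357). ILV5 was lower in galactose by -2.06 ± 0.18 at 15 min, CLN1 by -1.44 ± 0.17 and RRN11 by -1.14 ± 0.32 (adjusted p = 0.000142, 0.000459 and 0.0329).

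Genes under glucose repression rose at different times. Of the hexose transporters and sensors, 8 of 14 rose and none fell from 15 to 30 min (median step 0.56), 6 of 13 from 30 to 60 min (0.52), 2 of 12 from 60 to 120 min (0.13) and none of 14 from 120 to 240 min (0.06). Of glucose-repressed carbon use, 4 of 13 rose from 15 to 30 min (0.09), 6 rose and 1 fell from 30 to 60 min (0.56), 3 rose from 60 to 120 min (0.15) and none from 120 to 240 min (0.14), against 10.4%, 6.15%, 3.8% and 0.0452% of all genes. HXK1, the hexokinase used on non-dextrose sugars, had 2.39, 4.79, 5.93, 6.61 and 6.60 in Sgal and 1.69, 3.22, 5.21, 5.99 and 5.88 in Sgal+ino, against 2.37, 0.50, 0.62, 0.66 and 0.59 in SD+aa. Its 15 min difference from SD+aa was -0.33 ± 0.32 (adjusted p = 0.534). It rose by 1.96 ± 0.20 from 15 to 30 min and by 1.57 ± 0.28 from 30 to 60 min, and Sgal was the higher culture at all 5 times. HXT6, a high-affinity hexose transporter, had 1.72, 3.79, 5.42, 5.42 and 5.83 in Sgal and 1.01, 2.10, 3.94, 4.18 and 3.80 in Sgal+ino, a gap that was widest at 240 min (2.03). In SD+aa HXT6 had 1.63, -0.49, 0.30, 0.035 and 0.35. HXT6 and HXT7 are nearly identical genes that a probe may not tell apart. SUC2, the secreted invertase, had 0.85, 2.34, 4.25, 4.60 and 4.17 in Sgal and 0.65, 1.65, 3.42, 3.95 and 3.77 in Sgal+ino. Its largest step, 1.84 ± 0.36 between 30 and 60 min (adjusted p = 0.0128), brought both cultures above 3. HXT2, another high-affinity transporter, had 1.21, 2.64, 3.56, 3.34 and 2.98 in Sgal and 0.85, 1.11, 2.62, 2.43 and 2.38 in Sgal+ino, and HXT4 had 0.74, 2.18, 3.43, 3.19 and 3.90 in Sgal and 0.48, 0.43, 2.29, 2.38 and 2.19 in Sgal+ino. Both were higher in Sgal than in Sgal+ino at every time.

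The gene of the repressor MIG1 itself had -0.77, -0.04, 0.45, 1.12 and 1.56 in Sgal and -1.27, -0.06, 0.04, 0.49 and 0.55 in Sgal+ino. It was below t = 0 in both cultures at 15 min (-1.02 ± 0.13, adjusted p = 0.000115) and above it at 240 min (1.05 ± 0.22, adjusted p = 0.00282). Of the hexose transporters and glucose sensors, 5 rose and 4 fell of 15 tested at 15 min, and 13 rose and 1 fell of 17 at 240 min (median 1.74). The list of glucose-repressed carbon use had 6 higher and 1 lower of 15 at 15 min and 13 higher and 1 lower of 21 at 240 min (median 1.46). Over all genes tested 20.3% were higher and 17.8% lower at 15 min, and 27.4% and 37.1% at 240 min. CTA1, the peroxisomal catalase, was a late member of the glucose-repressed list, with -0.17, -0.20, 1.13, 3.42 and 4.26 in Sgal and -0.17, -0.38, 1.29, 2.77 and 4.07 in Sgal+ino. It was near t = 0 in both cultures through 30 min and had the largest change from 15 to 240 min of the genes measured in all 13 cultures and past the threshold, 4.34 ± 0.23. With missing cultures allowed PUT1 changed more, by 4.78 ± 0.25 (adjusted p = 1.24e-05), with its last Sgal value at the limit. POT1, the thiolase of peroxisomal fatty acid breakdown, had -0.14, -0.02, 1.35, 3.72 and 4.08 in Sgal and -0.21, -0.25, 0.56, 2.05 and 3.02 in Sgal+ino. ADH2, an alcohol dehydrogenase that oxidises ethanol, stayed between -0.16 and 0.81 over the 10 values.

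Among the galactose genes GAL1, GAL7 and GAL2 rose, and GAL10 did not pass the test. GAL1, galactokinase, had 0.40, 0.85, 2.00, 1.91 and 2.42 in Sgal and 0.10, 0.20, 0.98, 1.39 and 1.49 in Sgal+ino. It was higher in Sgal at each time and averaged 1.95 ± 0.23 at 240 min (adjusted p = 0.000107). GAL7, the uridyl transferase, had 1.12, 1.98, 2.51, 2.82 and 2.84 in Sgal and 0.51, 0.75, 1.37, 1.22 and 2.07 in Sgal+ino. It was ahead of GAL1 in both cultures at 15 min, with a mean of 0.82 ± 0.14 when genes missing in other cultures were allowed into the fit (adjusted p = 0.00139). GAL2, the galactose permease, had 0.14, 0.44, 1.88, 1.46 and 2.36 in Sgal and -0.08, -0.06, 0.65, 1.05 and 1.18 in Sgal+ino. In the fit that allowed missing cultures its mean was 1.77 ± 0.31 at 240 min (adjusted p = 0.00109). GAL3, the galactose sensor, had 0.24, 0.32, 0.98, 0.99 and 1.38 in Sgal and 0.14, -0.08, 0.31, 0.33 and 0.18 in Sgal+ino, so that the cultures lay 1.20 apart at 240 min.

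GAL10, the epimerase that lies beside GAL1, showed no such course. Its values were -0.22, 0.01, 0.05, -0.29 and -0.61 in Sgal and 0.11, -1.07, -0.29, -0.18 and -0.09 in Sgal+ino, with a 240 min mean of -0.35 ± 0.22 and a 95% interval of -0.83 to 0.14 (adjusted p = 0.181). GAL80, the inhibitor, fell to -0.64 ± 0.18 at 240 min (adjusted p = 0.0107) and was below t = 0 on all 10 culture-times. PGM2, which feeds galactose carbon into glycolysis, was the first of the list to pass 1 log2 unit, with 2.02, 3.51, 3.90, 4.11 and 3.69 in Sgal and 1.35, 1.93, 2.57, 3.02 and 2.78 in Sgal+ino. In SD+aa PGM2 had 2.12, 0.38, 0.40, 0.31 and 0.56, so at 15 min it was no higher in galactose than after the same handling in dextrose. MTH1, a corepressor of hexose transporter genes, had 1.17, 2.82, 3.83, 4.25 and 3.93 in Sgal and 0.81, 2.05, 2.88, 4.00 and 3.05 in Sgal+ino. Of the 9 members of the galactose list tested at 240 min, 7 rose and 2 fell, with a median of 1.95, against 27.4% and 37.1% of all genes.

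At 240 min GAL1, GAL7 and GAL2 were higher in galactose than in dextrose, but no difference from ethanol passed the test. At 240 min the galactose cultures minus the ethanol cultures without amino acids gave 0.77 ± 0.32 for GAL1 (95% interval 0.04 to 1.5, adjusted p = 0.176). The same difference was -0.00 ± 0.29 for GAL7 (interval -0.66 to 0.65, adjusted p = 0.993) and 1.16 ± 0.44 for GAL2 (interval 0.17 to 2.16, adjusted p = 0.149). The interval for GAL7 holds 0 near its middle, and those for GAL1 and GAL2 lie above 0 before adjustment. Against the dextrose cultures without amino acids, GAL1 was higher by 2.03 ± 0.32, GAL7 by 2.32 ± 0.29 and GAL2 by 1.67 ± 0.44 (adjusted p = 0.00165, 0.000477 and 0.0163). At 15 min the differences from dextrose were below 0, with -0.41 ± 0.15 for GAL1, -0.79 ± 0.20 for GAL7 and -0.32 ± 0.24 for GAL2 (adjusted p = 0.0392, 0.00483 and 0.272). Against galactose with amino acids the differences were 0.10 ± 0.32, -0.31 ± 0.29 and 0.26 ± 0.44, with adjusted p of 0.882, 0.545 and 0.754.

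**Figure D3:**
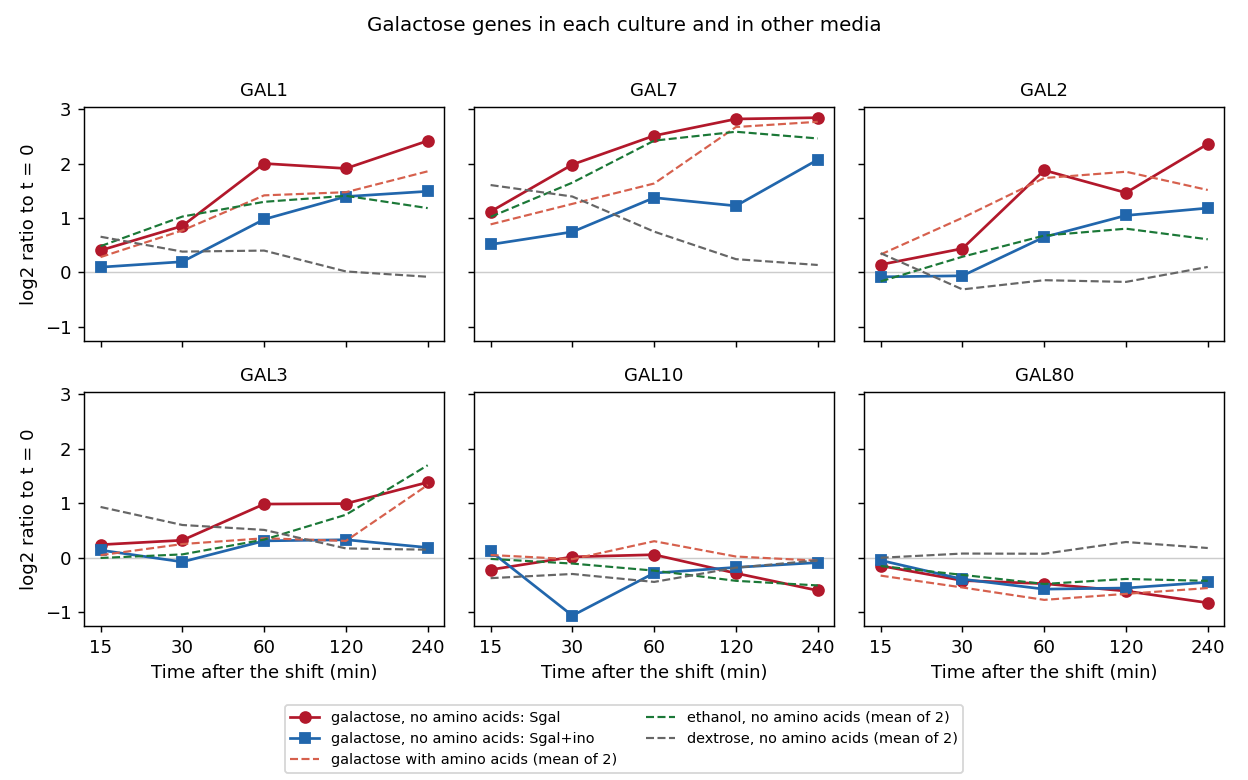
Log2 ratio to t = 0 of GAL1, GAL2, GAL3, GAL7, GAL10 and GAL80 by time in minutes, for Sgal and Sgal+ino (solid lines) and for the mean of the 2 cultures of each comparison medium (dashed lines). GAL7 at 240 min is 2.84 in Sgal and 2.07 in Sgal+ino, and the ethanol mean lies between them.

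Among the genes for making ribosomes, RNA polymerase and assembly factors had fallen further than the ribosomal proteins by 60 min. At 15 min the shares of RNA polymerase and ribosomal protein genes that fell were close. Of the list of ribosome assembly and rRNA processing, 35 of 73 fell and 3 rose at 15 min (median -0.26), and 66 of 73 fell and none rose at both 60 min (median -0.97) and 240 min (median -1.44). Of RNA polymerase I and III genes, 11 of 29 fell at 15 min (median -0.23), 26 of 28 at 60 min (median -0.94) and 26 of 30 at 240 min (median -1.35). Cytosolic ribosomal protein genes had 47 of 126 lower at 15 min (median -0.17), 95 of 132 at 60 min (median -0.58) and 118 of 133 at 240 min (median -1.28). The 15 min median of RNA polymerase genes was -0.32 in Sgal and -0.16 in Sgal+ino, against -0.50 in SD+aa. That of ribosomal proteins was -0.23 in Sgal and -0.11 in Sgal+ino, against -0.25 in SD+aa. Translation factors and tRNA synthetases began on the other side, with 18 of 41 higher and 1 lower at 15 min (median 0.17), and ended with 3 higher and 32 lower of 43 at 240 min (median -0.94). As background for these lists, 17.8% of all tested genes were lower and 20.3% higher in the 15 min samples. The lower share was 35.5% in the 60 min samples. In the 240 min samples 37.1% were lower and 27.4% higher.

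NSR1, a nucleolar protein of rRNA processing, had -0.81, -1.73, -2.26, -2.94 and -2.91 in Sgal and -0.69, -1.24, -1.66, -2.20 and -2.20 in Sgal+ino. NOG1, a GTPase of large-subunit assembly, had -0.90, -1.70, -2.28, -3.02 and -2.95 in Sgal and -0.74, -1.31, -1.78, -2.30 and -2.58 in Sgal+ino. Both were below t = 0 at 15 min and lower in Sgal at all 5 times, with 240 min means of -2.56 ± 0.25 and -2.77 ± 0.17. In SD+aa NSR1 was at -1.16 and NOG1 at -0.70 at 15 min, and at -0.42 and -0.26 at 240 min. RPA135, the second largest subunit of RNA polymerase I, had 0.38, -0.16, -0.65, -1.62 and -2.21 in Sgal and 0.52, -0.77, -0.48, -0.96 and -0.90 in Sgal+ino. It was above t = 0 at 15 min (0.45 ± 0.09, adjusted p = 0.00257) and changed by -2.0 from then to 240 min, where the cultures were 1.32 apart. RPS22A and RPS7A, proteins of the small subunit, averaged -0.41 ± 0.11 and -0.11 ± 0.11 at 15 min and -2.16 ± 0.25 and -1.80 ± 0.23 at 240 min. SUI1, a start-codon selection factor, was already at -1.02 ± 0.10 at 15 min, whereas CDC60, the leucyl-tRNA synthetase, was at 0.39 ± 0.08 at 15 min and -1.28 ± 0.28 at 240 min.

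The median time at which a gene passed the midpoint of its largest change, interpolated from t = 0 for genes that reached 1 log2 unit, differed between groups. For upward genes it was 19.3 min in Sgal and 24.4 min in Sgal+ino for the stress list (25 genes), 20.4 and 23.6 min for chaperones (19 genes), 25.8 and 39.4 min for hexose transporters (10 genes), and 37.2 and 56.1 min for glucose-repressed genes (15 genes). It was 45.0 min in Sgal and 64.5 min in Sgal+ino for nitrogen catabolite repressed genes (13 genes), 53.1 and 44.9 min for respiratory chain genes (12 genes), and 45.1 and 33.9 min for peroxide and redox genes (20 genes). The order of these groups was not the same in the 2 cultures. Midpoints between 15 and 60 min, here and below, use the 30 min values, and the 30 min array of Sgal+ino stood apart. The peroxide and redox median was 0.62 in Sgal and 0.93 in Sgal+ino at 30 min, and 1.37 and 0.98 at 60 min. Midpoints were not computed without the 30 min arrays, so a difference in order or timing between the cultures may rest on that array. For downward genes it was 18.9 and 18.2 min for the cyclin list (7 genes), 38.1 and 33.7 min for ribosome assembly (43 genes), and 67.9 and 54.9 min for ribosomal proteins (36 genes). Over all 769 genes that went up by 1 log2 unit with both times defined, the medians were 28.65 min in Sgal and 34.80 min in Sgal+ino, and 217 of them were later in Sgal. Over 658 downward genes the medians were 33.23 and 29.40 min, and 351 were later in Sgal. The midpoint depends on the size of the largest value, which lay at 240 min for many genes and at the limit for some, so it does not date a switch.

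**Figure D4:**
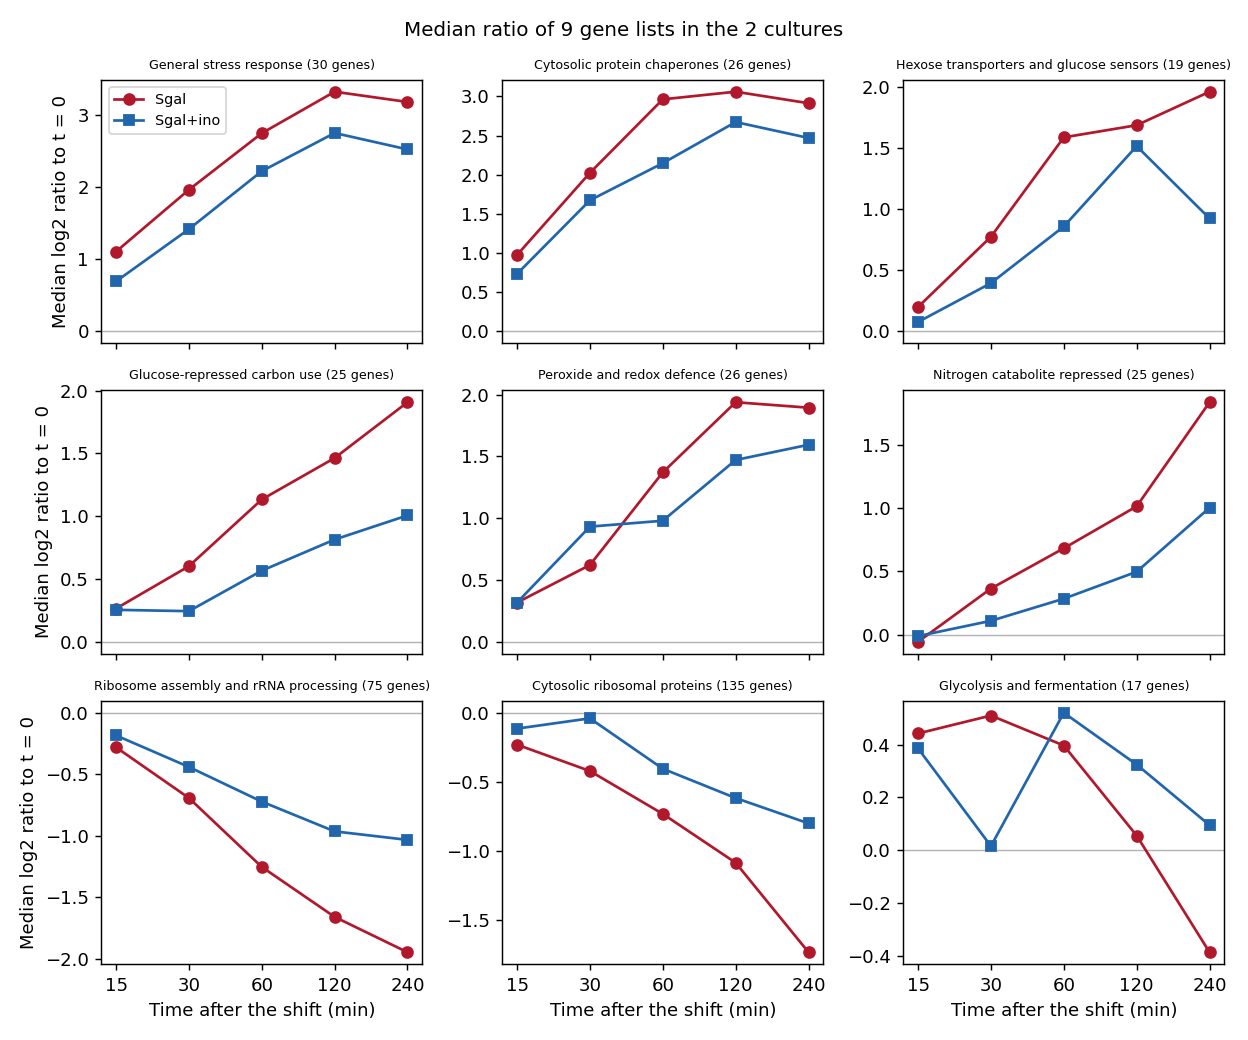
Median log2 ratio to t = 0 of gene lists by time in minutes, with Sgal and Sgal+ino as separate lines. Stress genes are above t = 0 in both cultures at 15 min, and ribosomal protein genes reach -1.73 in Sgal and -0.80 in Sgal+ino at 240 min. The panels have different vertical scales.

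Most tested genes of amino acid synthesis lists fell or did not pass the test after amino acids were removed together with dextrose. GCN4, the activator of amino acid synthesis, had -0.71, -0.94, -1.33, -1.69 and -1.80 in Sgal and -0.54, -1.24, -1.18, -1.66 and -1.81 in Sgal+ino, a fall in its transcript at every time (-1.81 ± 0.33 at 240 min, adjusted p = 0.00122). Its regulation is largely at translation, which these arrays do not measure. At 240 min 0 of 7 arginine genes rose and 3 fell (median -0.51), 2 of 9 lysine genes rose and 6 fell (median -1.02), and 1 of 7 histidine genes rose and 5 fell (median -0.83). Of branched-chain genes, 1 of 13 rose and 11 fell (median -0.99), and of purine genes, 2 of 13 rose and 8 fell (median -1.04). Of aromatic genes, 1 of 13 rose and 4 fell (median -0.52), and of serine, glycine and threonine genes, 0 of 15 rose and 8 fell (median -0.55). With 37.1% of all genes lower, the shares of arginine and aromatic genes that fell were near or below the background. HIS1, the first enzyme of histidine synthesis, had -0.43, -1.05, -1.79, -1.64 and -1.95 in Sgal and -0.58, -0.93, -1.28, -1.84 and -1.83 in Sgal+ino. BAT2, a cytosolic branched-chain aminotransferase, was the riser among the branched-chain genes, with 0.29, 0.72, 1.73, 3.00 and 4.10 in Sgal and 0.36, 0.66, 1.31, 2.29 and 2.79 in Sgal+ino. The mitochondrial form BAT1 had -0.18, -0.74, -1.25, -1.84 and -2.14 in Sgal and -0.20, -0.54, -0.78, -1.20 and -1.30 in Sgal+ino, on the other side of t = 0 in both cultures at all 5 times.

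Genes for scavenging nitrogen rose over the course, some of them late. Of the nitrogen catabolite repressed list, 5 rose and 3 fell of 15 at 15 min, 11 rose and 1 fell of 18 at 60 min, and 15 rose and 1 fell of 18 at 240 min (median 1.63). Over all genes 20.3% rose and 17.8% fell at 15 min, and 25.9% rose at 60 min and 27.4% at 240 min. PUT1, proline oxidase, was early among the genes of this list, with 1.68, 3.79, 5.33, 6.55 and 6.64 in Sgal and 0.84, 2.60, 4.09, 5.00 and 5.44 in Sgal+ino. MEP2, a high-affinity ammonium permease, had -0.71, -1.03, -0.63, 0.84 and 3.36 in Sgal and -0.41, -0.91, -0.62, -0.12 and 2.02 in Sgal+ino. It was below t = 0 in both cultures through 60 min, and its step from 120 to 240 min, 2.33 ± 0.15 (adjusted p = 0.00033), was the largest of that interval. GAP1, the general amino acid permease, had -0.47, -0.49, 0.45, 1.53 and 2.76 in Sgal and -0.20, -1.05, -0.13, 0.41 and 1.04 in Sgal+ino, with the same early low and late high. The sulfate and methionine list had 5 of 24 higher and 1 lower at 15 min. At 240 min 9 of 25 were higher and 1 lower (median 0.35), close to the background of 27.4%. Of the list's 27 genes with a probe, 6 went up by 1 log2 unit in both cultures, against 14% of all genes. Within it, MET2, the acetyl transferase of methionine synthesis, had -0.02, 0.20, 1.45, 3.11 and 3.99 in Sgal and 0.19, -0.44, 0.51, 1.34 and 2.09 in Sgal+ino. MUP3, a methionine permease, had 0.31, 0.97, 2.65, 4.08 and 4.23 in Sgal and 0.15, 0.23, 1.51, 2.73 and 3.68 in Sgal+ino. Both genes were near t = 0 at 15 min, and Sgal was ahead from 30 min on.

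Respiratory and redox genes rose, and those of mitochondrial ribosomes went both ways. Of 69 mitochondrial ribosomal protein genes, 21 rose and 11 fell at 240 min (median 0.08), against 27.4% and 37.1% of all genes. Of 33 respiratory chain and ATP synthase genes, 8 rose at 15 min (median 0.16), 23 of 32 at 60 min (median 0.62) and 23 of 33 at 240 min (median 1.03), with 1 or 2 lower each time. Over all genes 20.3%, 25.9% and 27.4% rose at these times, so the 15 min share was near the background. The respiratory median at 15 min was 0.19 in Sgal and 0.15 in Sgal+ino, against 0.37 in SD+aa, and at 240 min 1.29 and 0.79, against 0.13. QCR7, a subunit of complex III, had 0.29, 0.63, 1.32, 2.18 and 3.02 in Sgal and 0.03, 1.02, 1.03, 1.96 and 2.30 in Sgal+ino. The peroxide and redox defence list had 10 of 22 higher at 15 min (median 0.31) and 19 of 23 higher and 1 lower at 240 min (median 1.80). At 15 min this list had a median of 0.317 in Sgal and 0.317 in Sgal+ino, against 0.319 in SD+aa. At 240 min the list had 1.89 in Sgal and 1.59 in Sgal+ino, against 0.05 in SD+aa. CIN5, a transcription factor of the Yap family, led it with 2.45, 4.15, 5.16, 5.64 and 5.22 in Sgal and 2.04, 4.07, 4.82, 5.48 and 5.66 in Sgal+ino. TSA2, a peroxiredoxin, had 0.26, 1.13, 2.06, 3.36 and 2.62 in Sgal and 0.56, 0.94, 2.12, 3.64 and 4.03 in Sgal+ino, so that Sgal was the lower culture at 120 and 240 min. Of 16 citric acid cycle genes, 9 rose at 15 min and 9 rose and 1 fell at 240 min (median 1.06), and ACO1, aconitase, was the member that fell (-1.54 ± 0.35). The citric acid cycle median at 15 min was 0.33 in Sgal and 0.30 in Sgal+ino, against 0.69 in SD+aa, and at 240 min 1.47 and 0.54, against 0.16. Glycolysis and fermentation genes had 9 of 15 higher and none lower at 15 min (median 0.41), and 3 higher and 3 lower of 17 at 240 min (median -0.12). Their median at 15 min was 0.44 in Sgal and 0.39 in Sgal+ino, against 0.15 in SD+aa. Ergosterol synthesis changed sides, with 5 of 22 higher and 1 lower at 15 min (median 0.16), and none higher and 17 lower at 240 min (median -0.88).

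Between successive samples fewer genes passed the test in each later interval. From 15 to 30 min 457 genes rose and 583 fell of 4406 (10.4% and 13.2%), from 30 to 60 min 275 rose and 287 fell of 4468 (6.15% and 6.42%), and from 60 to 120 min 163 rose and 177 fell of 4295 (3.8% and 4.12%, or 7.92% either way). From 120 to 240 min 2 genes rose and none fell by limma (0.0452% of 4425 genes), with 467 at an unadjusted p under 0.05. The intervals double in length, so the counts are not rates. From 15 to 240 min 1098 genes rose and 1670 fell of 4638 (23.7% and 36%, or 59.7% either way). These counts differ with the cultures used: without Sgal+ino, whose 30 min array stood apart, they were 179, 1, 7, 26 and 2361 for the 5 changes, and without Sgal 1072, 83, 1, 1 and 1471. After median centring of the arrays, 584 genes rose and 354 fell from 15 to 30 min, 302 and 209 from 30 to 60 min, 199 and 107 from 60 to 120 min, and 1267 and 1282 from 15 to 240 min.

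The leading genes of the intervals overlapped in part. From 15 to 30 min SSA4 (2.56 ± 0.23), HSP12 (2.17 ± 0.28), the glycogen phosphorylase gene GPH1 (2.10 ± 0.16) and MGA1 (2.07 ± 0.11), which encodes a protein like heat-shock factor, rose most apart from PAR32 and VMA8. The steps of PAR32 and VMA8 rested on values at the limit in Sgal+ino. RPA135 (-0.92 ± 0.17), the rRNA-processing helicase gene DBP7 (-0.89 ± 0.14) and the GDP-mannose transporter gene VRG4 (-0.87 ± 0.21) were among those that fell most. By culture, the 15 to 30 min step was 2.63 in Sgal and 2.48 in Sgal+ino for SSA4, 2.18 and 2.15 for HSP12, 2.22 and 1.99 for GPH1, and 2.15 and 1.98 for MGA1. It was -0.54 in Sgal and -1.30 in Sgal+ino for RPA135, -0.77 and -1.0 for DBP7, and -0.40 and -1.33 for VRG4, so that these falls were larger on the array that stood apart. The plasma membrane proton pump gene PMA1 had -0.02, -0.47, -0.88, -1.97 and -2.48 in Sgal and -0.00, -1.19, -0.73, -1.49 and -1.80 in Sgal+ino, and PMA2 fell most from 15 to 30 min (-1.14 ± 0.31), by 0.24 in Sgal and 2.03 in Sgal+ino. The 2 are close paralogs whose probes may share signal. From 30 to 60 min SUC2, HXT6, HXK1, HXT4 and CTA1 were among the genes that rose most, and the ribosome assembly genes CGR1 (-1.40 ± 0.22), MAK16 (-1.22 ± 0.23) and EBP2 (-1.04 ± 0.18) among those that fell most. CGR1 had -0.52, -1.07, -2.79, -1.71 and -2.12 in Sgal and -0.51, 0.25, -0.83, -0.33 and -0.69 in Sgal+ino, where the 30 min value was above t = 0. Its 15 to 60 min change, which leaves out the 30 min arrays, was -2.27 in Sgal and -0.32 in Sgal+ino, and that of MAK16 -1.57 and -1.08. From 60 to 120 min CTA1, HSP12, TSA2, MUP3 and MET2 rose most, by 1.88, 1.86, 1.41, 1.32 and 1.25. In the same interval PMA1 (-0.93), the mannosyltransferase gene PMT4 (-0.89), the Gcn2 activator gene GCN1 (-0.86) and the transketolase gene TKL1 (-0.86) fell. From 120 to 240 min the risers were MEP2 and the copper transporter gene CTR1, which had -0.68, -1.03, -0.44, 1.00 and 2.69 in Sgal and -0.40, -0.53, -0.56, -0.45 and 0.74 in Sgal+ino and a step of 1.44 ± 0.17 (adjusted p = 0.0338).

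The spread between Sgal and Sgal+ino was smallest at 15 min, similar from 30 to 120 min and widest at 240 min. The SD over genes of Sgal minus Sgal+ino was 0.264 at 15 min, 0.455 at 30 min, 0.418 at 60 min, 0.457 at 120 min and 0.610 at 240 min. Genes at least 1 log2 unit apart numbered 29, 158, 112, 158 and 540, which is 0.528%, 2.87%, 2.05%, 2.89% and 9.86% of the genes measured. At 240 min 270 of the 540 were higher in Sgal and 270 higher in Sgal+ino. The pair in galactose with amino acids (Sgal+aa, Sgal+aa+ino) spread more, with an SD of 0.845 and 966 genes apart at 240 min. The pair SEtOH and SEtOH+ino had 0.227 and 24 genes, and the pair SD and SD+ino 0.272 and 19 genes. Each culture differs from its partner in inositol and in being a separate culture, and these cannot be told apart.

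Of the 540 genes 1 log2 unit apart at 240 min, 434 lay on the same side of t = 0 in both cultures, 410 of them further out in Sgal and 24 further out in Sgal+ino. At 15, 30, 60 and 120 min 27 of 29, 96 of 158, 108 of 112 and 146 of 158 lay on the same side. The next counts take genes chosen to share a direction, so they describe size alone. Among genes at least 1 log2 unit up in both cultures, 71 of 76 were larger in Sgal at 15 min, 202 of 241 at 30 min, 408 of 448 at 60 min, 555 of 640 at 120 min and 514 of 703 at 240 min. Among genes as far down in both, 29 of 34, 60 of 99, 206 of 241, 438 of 506 and 447 of 548 were further down in Sgal. The median upward ratio at 60 min was 2.06 in Sgal and 1.55 in Sgal+ino, and the median downward ratio at 240 min was -1.78 in Sgal and -1.29 in Sgal+ino.

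The lists parted at different times. Hexose transporters and sensors were higher in Sgal than in Sgal+ino for 16, 16, 19, 18 and 19 of 19 genes from 15 to 240 min. The stress list was higher in Sgal for 24 of 30 genes at 15 min and 22 of 30 at 240 min. Ribosome assembly genes were higher in Sgal for 14 of 74 at 15 min and 15 of 75 at 30 min, and for 0, 1 and 7 of 74 from 60 to 240 min. Ribosomal protein genes were higher in Sgal for 36 of 133 at 15 min and 5 of 134 at 240 min. Glycolysis genes changed sides, with 11 and 16 of 17 higher in Sgal at 15 and 30 min and 4, 6 and 0 of 17 from 60 to 240 min, where the 30 min count uses the array that stood apart. Citric acid cycle genes were higher in Sgal for 8 of 16 at 15 min and 16 of 16 at 240 min. Over all genes Sgal was the higher culture for 2361 of 5492 at 15 min and 2659 of 5476 at 240 min. These counts describe 1 culture against 1, and genes of a list are not replicates.

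Few single genes passed the test of Sgal minus Sgal+ino, in which the spread came from the other 4 pairs of cultures. At 15 min 4 genes passed (0.0853% of 4687), at 30 min 1 (0.0215%), at 60 min 1 (0.0204%), at 120 min 1 (0.0224%) and at 240 min 2, 1 in each direction (0.0194% each, 0.0389% in all), by limma. In the change from 15 to 240 min 1 gene passed with the higher value in Sgal (0.0216%) and 2 with the lower (0.0431%), 0.0647% in all. At an unadjusted p under 0.05 there were 82, 592, 390, 338 and 753. ROQ1 at 15 min differed by 2.39 ± 0.34 (adjusted p = 0.027), with 4.44 in Sgal and 2.05 in Sgal+ino, and was higher in Sgal at the other 4 times too. Of the others, VMA8 at 15 min, PAU24 at 60 min and NUF2 at 240 min each had -6.64 in Sgal+ino, PAU24 on both repeat arrays. TEN1 had -4.18 on the 240 min Sgal array. Each of these genes had values nearer 0 in the same culture at other times. PAR32 at 30 min stood at 6.64 in Sgal+ino against 0.42 in Sgal.

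The small count at 240 min rests on 1 pair. Without Sgal+aa and Sgal+aa+ino, whose difference was the widest, 498 genes were higher and 563 lower in Sgal at 240 min, of 5209 (20.4%), against 2 genes with all pairs. Without any 1 of the other 3 pairs the count was 1. Leaving out the widest pair lowers the spread by construction, and the comparison is still 1 culture against 1, so the values below are given without a call. The median difference Sgal minus Sgal+ino at 240 min was 0.92 for the hexose transporters and sensors tested in that fit and 0.74 for nitrogen catabolite repressed genes. It was -0.95 for ribosomal proteins, -0.93 for ribosome assembly and -0.76 for translation factors, against -0.06 for proteasome genes and -0.16 for cyclins. DIP5, a permease of acidic amino acids, had -0.27, -0.04, 0.65, 1.23 and 2.21 in Sgal and -0.47, -0.61, -0.33, -0.34 and -0.04 in Sgal+ino, so that the cultures separated from 60 min on.

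INO1, the gene of inositol synthesis, had 0.33, 0.63, 1.55, 2.75 and 1.99 in Sgal, which lacked inositol, and 0.38, 0.77, 0.82, 1.38 and 1.57 in Sgal+ino, and the gap was widest at 120 min (2.75 against 1.38). The pair in galactose with amino acids differed likewise at 120 min, with 3.24 in Sgal+aa and 1.71 in Sgal+aa+ino, whereas SEtOH had 0.85 and SEtOH+ino 1.21. The test of Sgal minus Sgal+ino takes its spread from pairs that also differ in inositol, so it cannot bear on an effect of inositol shared by them, and at 120 min INO1 was not tested for want of a value in another culture. It rose in both cultures together, to a mean of 1.78 ± 0.21 at 240 min (adjusted p = 0.000101).

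**Figure D5:**
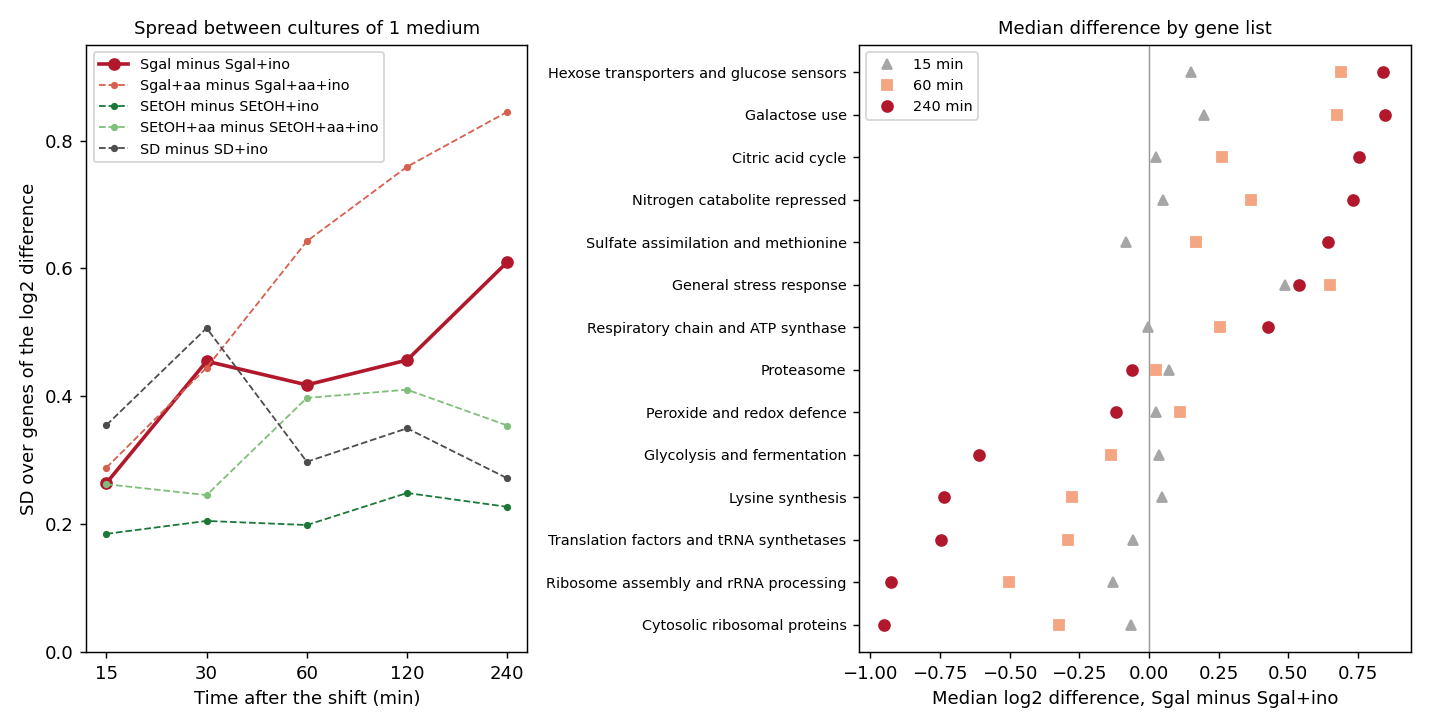
The left panel plots the SD over genes of the log2 difference within each pair of cultures by time in minutes, and the right panel the median log2 difference Sgal minus Sgal+ino of gene lists at 15, 60 and 240 min. The SD over genes for this pair is 0.264 at 15 min and 0.610 at 240 min, and ribosomal protein genes lie below 0 at 240 min.

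Few differences from galactose with amino acids (Sgal+aa, Sgal+aa+ino) passed the test before 240 min. Galactose without amino acids minus galactose with amino acids gave 0 genes of 4687 at 15 min by limma (0%; 395 at an unadjusted p under 0.05), 1 gene at 60 min (ARO9, lower) and 1 at 120 min (MET6, higher). At 240 min 61 genes were higher and 15 lower of 5145 (1.48%), a count that ranged from 18 to 969 when single cultures were left out. Ribosome assembly genes were 11 of the higher ones (of 73, median 1.21), among them IMP4 (2.04 ± 0.27, adjusted p = 0.0197) and DRS1 (1.97 ± 0.24), both of rRNA processing. Their values at 240 min were -1.24 and -1.18 in Sgal and -1.03 and -1.10 in Sgal+ino, below t = 0, so the genes had fallen less without amino acids than with them. MET6, methionine synthase, was higher by 2.00 ± 0.38. ARO9, an aminotransferase for breaking down aromatic amino acids, had the lowest difference, -3.79 ± 0.39 (adjusted p = 0.00832), followed by genes that include GSY1, glycogen synthase (-1.61 ± 0.22).

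Against ethanol without amino acids (SEtOH, SEtOH+ino), 1 gene was higher and 3 lower of 4687 at 15 min (0.0853% in all). At 240 min 63 were higher and 90 lower of 5145 (2.97%), and 43 higher and 95 lower after median centring of the arrays. CIN5 was the highest in galactose (4.65 ± 0.62, adjusted p = 0.00836) and was 1 of the genes already apart at 15 min (1.72 ± 0.22). SUC2 (3.15 ± 0.21) and HXT2 (2.99 ± 0.25) were also higher in galactose. For ACS1, acetyl-CoA synthetase, the difference was -4.81 ± 0.89 in galactose, for the sulfate permease gene SUL1 -4.13 ± 0.40 and for the acetate transporter gene ADY2 -3.08 ± 0.47. Of sulfate and methionine genes 9 of 25 were lower than in ethanol and none higher (median -1.15), and of glucose-repressed genes 4 of 21 were lower and 1 higher (median -1.55). Without SEtOH or SEtOH+ino the 240 min count was 3 or 11, so these calls rest on both ethanol cultures.

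Against dextrose without amino acids (SD, SD+ino) galactose differed most at 15 min, and several lists changed sides by 240 min. Galactose minus dextrose passed the test at 15 min for 3071 of 4687 genes, 1500 higher and 1571 lower (65.5%), and at 240 min for 962 higher and 1212 lower of 5145 (42.3%). After median centring 1076 were higher and 940 lower at 240 min, so that the side with more genes depended on the scaling. The dextrose cultures had themselves moved at 15 min, with 1739 genes at least 2-fold from t = 0 in SD and 1648 in SD+ino, against 227 in Sgal and 121 in Sgal+ino. At 15 min all 73 ribosome assembly genes tested were higher in galactose than in dextrose (median 3.30), and at 240 min 38 of 73 were lower (median -1.0). The medians of that list against t = 0 at 15 min were -0.28 in Sgal and -0.18 in Sgal+ino, so most of the 15 min gap was a fall in dextrose. The stress list was lower in galactose at 15 min for 23 of 26 genes (median -2.02) and higher at 240 min for 22 of 26 (median 2.36). Against t = 0 its 15 min medians were above 0 in galactose too, 1.10 in Sgal and 0.69 in Sgal+ino. Arginine genes were lower in galactose for 7 of 7 at both times (median -3.12 at 15 min and -1.98 at 240 min), and sulfate and methionine genes for 23 of 24 at 15 min (median -4.00). At 240 min the difference was -4.29 ± 0.35 for ARG3, of arginine synthesis, -3.96 ± 0.42 for MEP2 and -5.27 ± 0.40 for SUL1. MEP2 was nonetheless above t = 0 in both galactose cultures at 240 min. The difference for HSP12 was -5.26 ± 0.27 at 15 min and 1.65 ± 0.54 at 240 min, which turned to -0.88 under quantile normalization.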

How the data were processed

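Poly A+ RNA of shifted cells (Cy5) and of t = 0 cells (Cy3) was hybridised to whole-genome cDNA arrays, per the labels. The deposited table gives 1 value per probe and array, which was read as log10 and multiplied by 3.32 to log2. The base, direction and normalization of the values the authors deposited are not given in the sources used here. The table holds 6256 probes, of which 5568 have 1 gene symbol, 0 several and 688 none. They name 5538 genes (29 with more than 1 probe, averaged), and 5563 of these probes were found in the RefSeq R64 gene table. No column of values was left unused (0). On the 11 arrays 30 values stood at the upper and 11 at the lower limit.

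Repeat arrays of 1 culture and time were averaged. limma 3.58.1 (R 4.3.3) was fitted per time, on genes with a value in all 13 cultures, with 8 media as groups and inositol ignored, which leaves 5 residual degrees of freedom. Changes between times were taken within each culture. Sgal minus Sgal+ino was tested with these as separate groups, which leaves 4 residual degrees of freedom and assumes that the lone cultures vary like the others. p-values were adjusted by Benjamini-Hochberg over all genes tested, with a threshold of 0.05. Galactose was also set against SD+aa, a comparison added after seeing the data, in the first of these fits. The fit was tested on simulated data.

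Genes named are the leading genes past the threshold in each comparison, leading members of the gene lists, and 10 galactose, inositol, stress, methionine and nucleolar genes, with paralogs and genes beside them named for contrast. RRN11, MIG1, SUI1, HIS1, ADH2, QCR7, GAP1 and others of the text were also picked from the lists after their values were seen. The 35 gene lists hold 935 entries for 934 genes, of which 922 have a probe. The cultures and the lists were chosen with earlier results of these data known. Alternatives were normalization, gene filters, treatment of limit values, repeat arrays, moderation, an inositol block, the threshold of onset and leaving out cultures.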

Additional observations from a re-analysis of the deposited data

Results flagged for a closer look

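These single-gene differences between Sgal and Sgal+ino passed limma's test with the spread taken from the other 4 pairs of cultures. ROQ1, a regulator of protein degradation, was 2.39 higher in Sgal at 15 min (adjusted p = 0.027), from 4.44 in Sgal and 2.05 in Sgal+ino, and was higher in Sgal at the other 4 times. YNL320W was 1.30 higher in Sgal at 15 min (adjusted p = 0.027), with -0.17 in Sgal and -1.47 in Sgal+ino. GUF1, a mitochondrial translation factor, was 2.07 higher in Sgal at 15 min (adjusted p = 0.000535), with -0.17 in Sgal and -2.25 in Sgal+ino.

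Of the remaining genes, VMA8, NUF2, PAU24 and TEN1 were at least 3 log2 units from t = 0 at 1 time in 1 culture. At the other times of that culture they were within 1 log2 unit of t = 0. PAR32 and RRP36 did not meet this rule. VMA8 differed by 6.48 at 15 min (adjusted p = 2.12e-09) and by -6.02 in the change from 15 to 240 min (adjusted p = 0.000111), with -6.64 in Sgal+ino at 15 min. NUF2 differed by 6.15 at 240 min (adjusted p = 0.000256) and by 6.48 in the change (adjusted p = 0.000132), with -6.64 in Sgal+ino at 240 min. PAU24 differed by 6.46 at 60 min (adjusted p = 1.59e-05), with -6.64 in Sgal+ino. PAR32 differed by -6.22 at 30 min (adjusted p = 6.17e-06), with 6.64 in Sgal+ino. TEN1 differed by -3.63 at 240 min (adjusted p = 0.00905) and by -3.53 in the change (adjusted p = 0.0199), with -4.18 in Sgal. RRP36 differed by -3.78 at 120 min (adjusted p = 0.00551), with -4.46 in Sgal. The values at -6.64 and 6.64 are at the limit of the scale, and what lay behind these spots was not tested.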

How the results depend on the processing

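Of the counts of genes under alternatives, 206 stayed within 1.5 times the value reported and 127 did not. Of values of named genes, 1571 kept their direction and side of the threshold, 218 lost the call, 5 gained one and 2 turned. With quantile normalization 659 genes passed from 15 to 30 min, 0 from 30 to 60 min, 6 from 60 to 120 min and 1472 from 15 to 240 min. Under the same normalization 8 passed for Sgal minus Sgal+ino at 30 min, 4 against galactose with amino acids at 240 min, 39 and 34 against ethanol at 15 and 240 min, 1981 against dextrose at 15 min and 1394 against SD+aa at 15 min. The onset counts then were 694, 166, 119 and 53 at 15, 60, 120 and 240 min, HSP12 minus dextrose at 240 min was -0.88, and MET2 minus dextrose at 240 min was -1.34. With genes measured on every array 1125, 1255, 1830 and 1974 passed against t = 0 at 15, 30, 60 and 240 min. The steps gave 643 (15 to 30 min), 356 (30 to 60 min) and 1774 (15 to 240 min). Sgal minus Sgal+ino gave 2, 0 and 0 at 15, 120 and 240 min and 1 for the change. The media comparisons gave 2 (galactose with amino acids, 15 min), 2 and 81 (ethanol, 15 and 240 min), 1921 and 1275 (dextrose, 15 and 240 min), and 424 and 961 (SD+aa, 15 and 240 min). Onset counts were 54, 130, 209, 291 and 126. With values at the limit missing 529 passed from 60 to 120 min, 1 from 120 to 240 min, 0, 0 and 1 for Sgal minus Sgal+ino at 30, 60 and 240 min, 1 for its change and 2 against galactose with amino acids at 15 min. With the first array of each repeat 0 passed for Sgal minus Sgal+ino at 120 min, and with unnamed probes 2 at 60 min. Median centring gave 2 against galactose with amino acids at 15 min. Trend and robust moderation gave 1 from 120 to 240 min, and 1 and 7 against galactose with amino acids at 15 and 240 min. With an inositol term (replicate block) these were 1, 1 and 13, and the block moved no other count by over 1.5 times. With only the 4 galactose cultures 2165 passed against t = 0 at 240 min, and 295, 139, 0, 0 and 1590 for the 5 changes. With no replicate block (times as independent samples) 318, 0, 0 and 0 passed for the successive steps. Allowing missing values gave 1 from 120 to 240 min. Onset counts were 393, 655, 735 and 720 at 15 to 120 min with a threshold of 0.58, and 35, 96, 168, 217 and 102 with 1.5. They were 3, 18, 23, 21 and 17 with deposited values read as log2, and 581 at 60 min without the 30 min arrays. Leaving out Sgal or Sgal+ino gave 544 to 949, 1298 to 1545, 1685 to 2628, 1929 to 2705 and 2072 to 3048 against t = 0, and 179 to 1072, 1 to 83, 1 to 7, 1 to 26 and 1471 to 2361 for the changes. Onset counts were then 121 to 227, 368 to 462, 356 to 727, 494 to 777 and 281 to 505. Leaving out a pair gave 2 to 4, 1 to 22, 1 to 7, 0 to 2 and 1 to 1061 for Sgal minus Sgal+ino, and 2 to 474 for its change. Leaving out a culture gave 0 to 27 and 18 to 969 against galactose with amino acids (15 and 240 min), 0 to 6 and 3 to 231 against ethanol, 2587 to 3030 and 954 to 2359 against dextrose, and 242 to 338 and 805 to 2012 against SD+aa. The median of ER folding genes at 60 min turned to 0.19 with genes on every array and 0.0197 with first arrays (-0.23 as reported), and that of copper and iron uptake to 0.009 with first arrays (-0.32 as reported). Why these values moved was not tested. Precision is limited by 1 culture per medium and no dye swap.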

Other observations

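Proteasome, autophagy and endoplasmic reticulum genes were also measured. Over all genes tested 20.3% rose and 17.8% fell at 15 min, and 27.4% and 37.1% at 240 min. Of 35 proteasome genes tested, 12 rose and none fell at 15 min, and 17 rose and 4 fell at 240 min (median 0.36). The 15 min median of proteasome genes was 0.20 in Sgal and 0.14 in Sgal+ino, against 0.30 in SD+aa. That of autophagy genes was 0.235 in Sgal and 0.15 in Sgal+ino, against 0.21 in SD+aa. RPN4, the activator of proteasome genes, had 0.43, 1.48, 1.62, 2.35 and 2.48 in Sgal and 0.19, 0.98, 1.65, 2.02 and 2.26 in Sgal+ino. Of autophagy genes 11 of 23 rose at 15 min and 23 of 32 at 240 min (median 0.87), with ATG8, which marks autophagosome membranes, at 1.55, 2.27, 3.02, 4.24 and 4.41 in Sgal and 0.94, 1.70, 2.75, 3.02 and 3.77 in Sgal+ino. Of 12 genes of folding in the endoplasmic reticulum, 2 rose and 4 fell at 240 min (median -0.50). KAR2, the Hsp70 of that compartment, was 1 of the risers, with 0.67, 1.5, 2.28, 2.45 and 1.85 in Sgal and 0.58, 0.85, 1.60, 1.98 and 1.85 in Sgal+ino. Of DNA replication genes 16 of 21 fell and 1 rose at 240 min (median -0.88). RNR1, the large subunit of ribonucleotide reductase, had -0.94, -1.58, -2.49, -2.59 and -2.87 in Sgal and -0.88, -1.59, -1.90, -2.46 and -2.37 in Sgal+ino.

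Of the remaining lists, amino acid permeases and their regulators had 4 higher and 10 lower of 20 at 15 min, and 8 higher and 9 lower of 21 at 240 min (median -0.00). Copper and iron uptake had 7 higher and 3 lower of 14 at 240 min (median 0.65), and inositol-regulated phospholipid genes 9 higher and 4 lower of 19 (median 0.36). The copper and iron median rests on the genes measured in all 13 cultures. With missing cultures allowed it was 0.06 over 17 genes. Over all its genes with a probe it was 0.42 in Sgal and 0.003 in Sgal+ino. Ammonium assimilation and proline synthesis had 6 higher and 2 lower of 10 at 15 min (median 0.41), and 3 higher and 2 lower of 11 at 240 min (median -0.26). Histone genes had 3 higher and 2 lower of 10 at 240 min (median -0.30), and genes of amino acid breakdown to fusel alcohols 1 higher and 1 lower of 7 (median 0.22). Over all genes tested 20.3% were higher and 17.8% lower at 15 min, and 27.4% and 37.1% at 240 min.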
